A study of Mus musculus with 35 samples.

Results

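Pseudogenes that were expressed in all 6 tissues of a mouse RNA-seq series were described. A gene entered when the combined annotation named it processed_pseudogene or unprocessed_pseudogene, when its name did not end in -ps with or without a number, when it lay outside chromosome 1 from 24.61 to 24.62 Mb, and when its mean level reached 0.5 CPM (count over the total count of the library, times 1000000) in each of brain, cerebellum, heart, colon, ovary and testis. These rules left 50 of 11331 eligible pseudogenes, a share of 0.441%, out of 55356 genes in the count table. Genes overlapped by a full-length Iso-seq transcript on the same strand were counted under an Iso-seq locus without such a biotype. Pseudogenes among them could not be eligible, and the paper reports a higher level for pseudogenes detected by Iso-seq than for others. The members were thus chosen by measured values, the tissue means of CPM over both sexes, so every tissue level below is a description without a test. The differences between females and males were not part of the rule, and only those were tested, but a pseudogene near the threshold can have entered because it was high in 1 sex, as *Gm4366* in colon and *Gm16386* in heart.

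A pseudogene is a gene copy that is held not to make the protein of its source gene. A processed copy arose when a spliced mRNA was copied into DNA and inserted elsewhere, so it lacks introns and usually the promoter of its source. An unprocessed copy arose by duplication of a stretch of the genome and can keep introns and a promoter. Because genes that are read strongly in the germ line leave the most processed copies, their sources are often housekeeping genes, such as those for ribosomal proteins, glycolytic enzymes and chaperones.

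The RNA came from adult C57BL/6J mice without a treatment named in the labels, was depleted of ribosomal RNA and was read as strand-specific short-read libraries. There were 29 libraries in 10 groups of sex and tissue, with 3 libraries each of female brain, cerebellum, heart, colon and ovary and of male brain, cerebellum, colon and testis, and 2 of male heart. The labels do not say which libraries came from the same animal or whether animals were pooled, so that p-values measure the spread between these libraries. The total count per library ranged from 11742417 in female colon to 36194255, with a median of 24403774, and 0.5 CPM stood for 5.87 reads in the shallowest library and for 18.1 in the deepest.

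Of 23 marker genes of a tissue or a sex, 22 were higher in every library with that label than in every other library. Among markers of other tissues that a dissection can hold, the 3 fat markers *Adipoq*, *Plin1* and *Cfd* stood apart in 1 heart library. Their summed level was 3100 FPKM (CPM per kilobase of exon) in female heart replicate 3 and 0.565, 6.67, 2.02 and 0.534 FPKM in female heart replicates 1 and 2 and male heart replicates 1 and 2. *Cfd*, which encodes adipsin, was the most abundant of them at 2313 FPKM. The 2 markers of plasma and B cells, *Jchain* and *Cd79a*, were summed at 51.3 FPKM in the same library against 0.843 to 1.85 FPKM in the other heart libraries, and no marker of either list was at 0 there. The summed heart markers *Myh6*, *Myl2* and *Tnnt2* were at 12550 FPKM in this library and at 24542 to 35065 FPKM in the others. The 3 red cell markers were high throughout heart, from 6576 FPKM in female replicate 3 to 22868 FPKM in female replicate 1. In colon, *Cd79a* was at 23.1 FPKM in male replicate 1 and at 0.175 to 1.61 FPKM in the other 5 libraries.

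Of the eligible pseudogenes, 10253 reached the threshold in no tissue, 750 in 1, 158 in 2, 57 in 3, 39 in 4 and 24 in 5 tissues. The count therefore rose again from 5 to 6 tissues. Among genes counted under their ENSEMBL entry, 22.5% of 9040 protein-coding genes and 12.1% of 9757 lncRNAs reached the threshold in all 6 tissues, and 81.1% of the 13045 loci built from full-length Iso-seq transcripts did. The ENSEMBL entries are those left without an Iso-seq locus, for pseudogenes as for coding genes and lncRNAs. These shares therefore do not describe all genes of a kind. The members comprised 40 of 9318 processed and 10 of 2013 unprocessed pseudogenes, and 39 of the 50 had 1 exon. Their exons summed to a median of 1061 bases (195 to 7293), against 558 bases over all eligible pseudogenes and 770 bases over those expressed in 1 to 5 tissues. Because CPM is not divided by length, a longer gene reaches the threshold more easily, so nothing is read from this difference. They lay on 18 chromosomes, with at most 6 on any of them (chromosomes 8 and 17).

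At the threshold, the lowest tissue means of members were 0.507 ± 0.303 CPM for *Gm43106* (SD, n = 5, heart) and 0.519 ± 0.086 CPM for *Gm6136* (SD, n = 3, testis). Just outside it stood *Gm16147* at 0.488 ± 0.285 CPM (SD, n = 5, heart) and *Gm13340* at 0.487 ± 0.0566 CPM (SD, n = 3, testis). The SD of each of these means exceeded its distance from the threshold. In single libraries, 27 of the 50 members reached 0.5 CPM in all 29, and only *Gm16386* had a library with 0 counts. Female heart replicate 3 carried part of the list, because 43 pseudogenes were left without it, and *Gm10123*, *Gm10509*, *Gm15470*, *Gm16386*, *Gm19178*, *Gm3365* and *Gm43106* dropped out. In all, 34 members stayed in the list whichever library was left out.

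**Figure D1:**
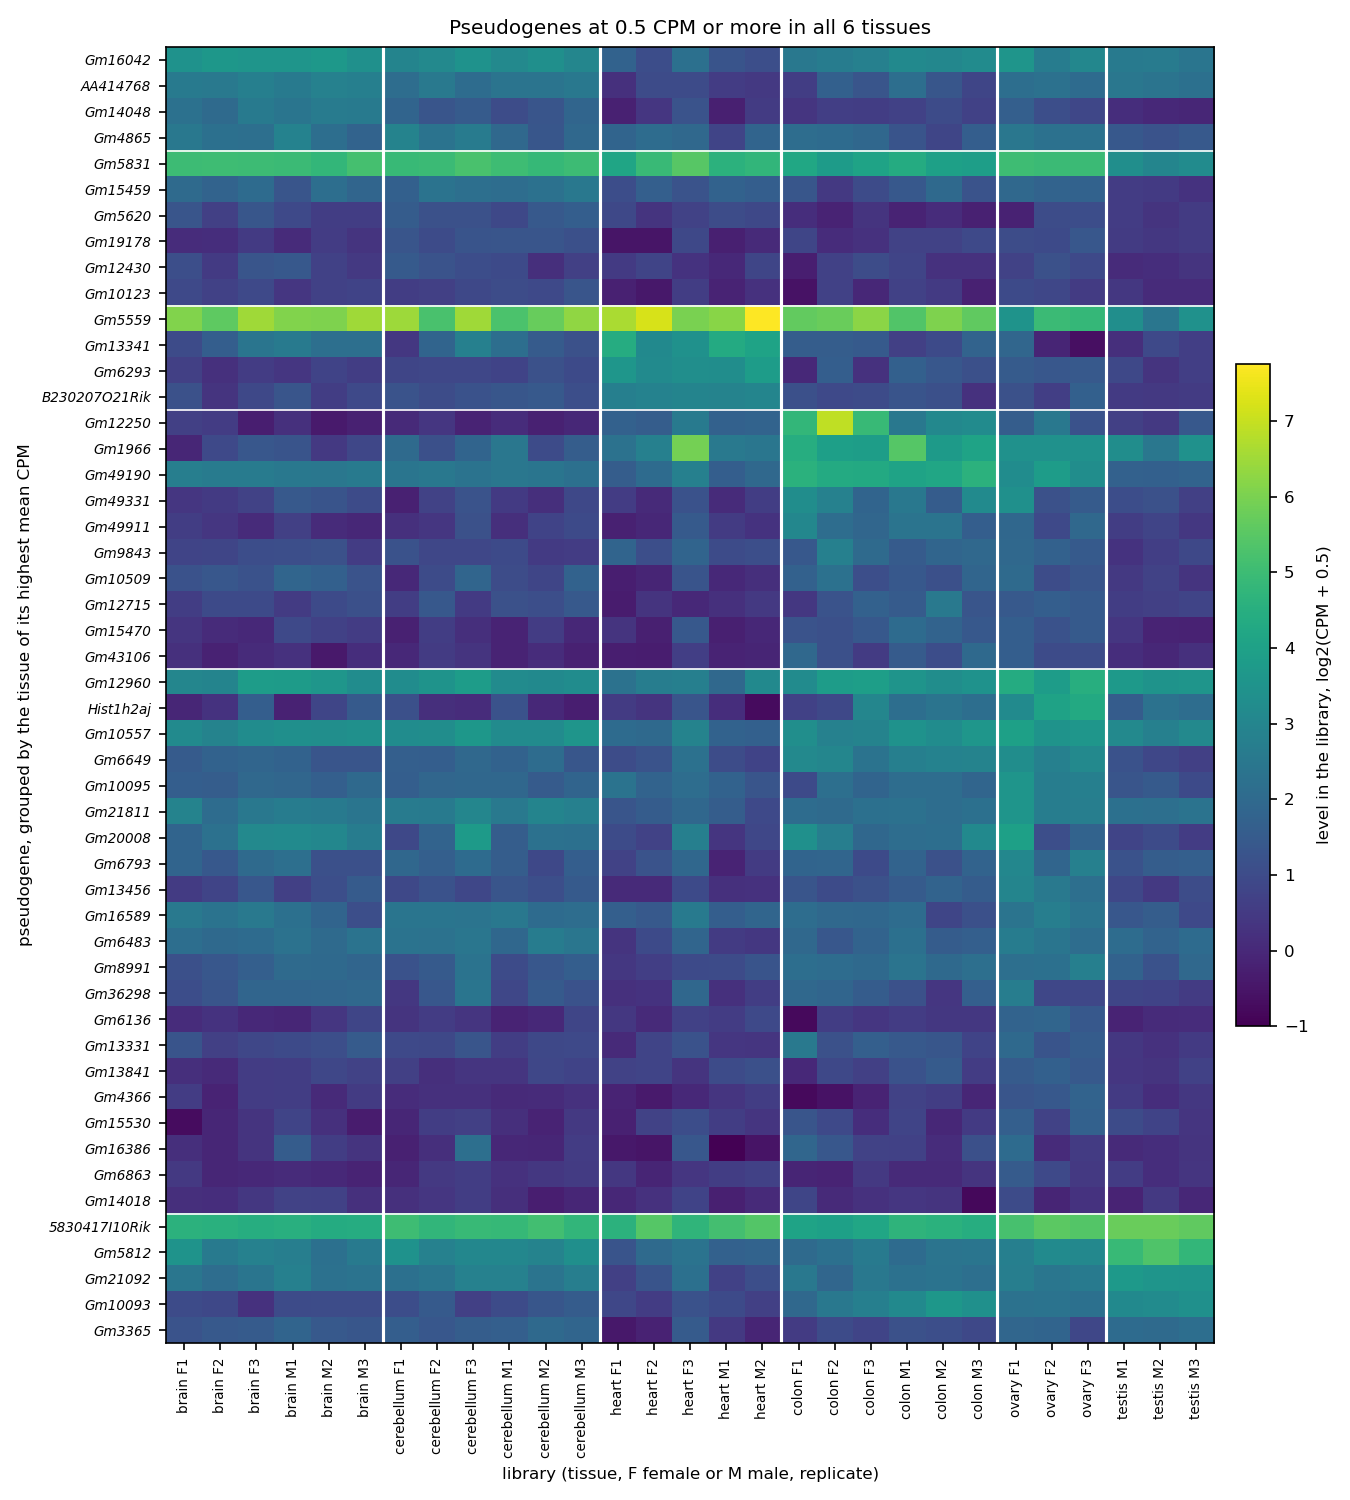
Level of each of the 50 pseudogenes in each of the 29 libraries, as log2(CPM + 0.5), with libraries in columns by tissue and sex and pseudogenes in rows by the tissue of their highest mean. Over the pseudogenes the highest tissue mean was a median of 4.22 times the lowest.

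Between genes, levels were compared per length of exon. The mean of the 6 tissue means had a median of 2.78 FPKM over the members and ran from 0.62 FPKM for *Gm19178* to 57 FPKM for *Gm5559*. Then followed *Gm5831* at 20.4, *Gm6293* at 15.3 and *Gm10557* at 14 FPKM, and 8 members were over 10 FPKM. Summed over the 50 members, the level was 259 ± 26.9 CPM in brain (SD, n = 6), 260 ± 38.9 CPM in cerebellum (SD, n = 6), 302 ± 67.8 CPM in heart (SD, n = 5), 301 ± 35 CPM in colon (SD, n = 6), 314 ± 19.1 CPM in ovary (SD, n = 3) and 214 ± 4.24 CPM in testis (SD, n = 3). The members took 49.5% of all counts on eligible pseudogenes in heart and 6.58% in testis, where 554 eligible pseudogenes reached the threshold against 132 in heart. *Gm5559* alone made up much of the heart sum, which was 182 ± 52.7 CPM without it (SD, n = 5).

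The members differed between tissues. The highest tissue mean was a median of 4.22 times the lowest (quartiles 3.3 and 5.97), against 6.09 over the 2038 coding genes that reached the threshold in all 6 tissues under their ENSEMBL entry. The mean of the 6 tissue means had a median of 2.76 CPM over the members and 11.5 CPM over these coding genes. Because the rule used the tissue means and members lay nearer the threshold, nothing is read from the difference in ratio. The ratio ran from 1.49 for *Gm14018* to 61.4 for *Gm12250*, and 7 members were above 10. The highest mean was in ovary for 21 members, in colon for 10, in cerebellum for 6, in testis for 5, in heart for 4 and in brain for 4, while the lowest was in heart for 21 and in testis for 20. Of those coding genes, 32.8% were highest in ovary, 19.7% in colon, 12.6% in cerebellum, 12.3% in testis, 10.7% in heart and 11.8% in brain, and 25.8% were lowest in heart and 35% in testis, against 42%, 20%, 12%, 10%, 8% and 8% and 42% and 40% of the members. Without female heart replicate 3, heart was lowest for 26, and without ovary replicate 1, ovary was highest for 15. In CPM scaled by TMM factors, which correct for a few genes that take a large share of the counts, ovary was highest for 12 members instead of 21, so this count depends on the scaling. In such bulk samples, fewer cells of a type and less RNA per cell cannot be told apart.

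For 18 members, every library of some tissue lay above or below every other library. Brain was above for 1 member (4.93% of the 29911 genes that passed the low count filter), heart for 3 (3.43%), colon for 1 (6.52%), ovary for 5 (8.31%) and testis for 4 (23.3%). Heart was below for 2 (2.86%) and testis for 2 (7.5%). Since the rule used tissue means, nothing is read from these shares.

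The members were set against the coding genes they resemble. By BLAST of their joined exons against coding transcripts, 48 of the 50 (96%) had a matched coding gene at 70% identity or more over at least 100 bases, against 91.3% of all eligible pseudogenes. Their identity had a median of 96.7%, against 92.2% for pseudogenes expressed in 1 to 5 tissues and 89.5% for all eligible, and 32 of the 48 (66.7%) were at 95% or more, against 27.8%. Every stretch of 100 bases of a member was also searched, letter for letter, in the transcripts of other genes. A median of 19.8% of these windows was found there, against 0 over all eligible pseudogenes, and 20 members (40%) shared at least 50% of their windows, against 15.9%. The authors retained uniquely mapped reads, and a read inside such a window does not differ between the member and another gene, which is not always its source, so the counts of those 20 members are uncertain. All windows of *Gm13841*, *Gm9843* and *Gm10123* were shared, and their counts could come from longer fragments or from reads with mismatches; which of these was not tested.

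The sources covered several housekeeping families, none of them large among the members. Ribosomal protein copies were 3 of the 48 (6.25%), against 19.7% of matched eligible pseudogenes. hnRNP copies were also 3 (6.25% against 1.03%). There were 2 copies each of genes for translation factors (4.17% against 1.44%), chaperones (4.17% against 1.65%), the cytoskeleton (4.17% against 1.08%) and the ubiquitin system (4.17% against 1.8%). Glycolysis (2.08% against 2.41%), the nuclear genes of the respiratory chain and ATP synthase (2.08% against 2.22%) and chromatin (2.08% against 3.43%) had 1 copy each. That of chromatin was the histone copy *Hist1h2aj*. The remaining 31 were outside these lists of gene names, among them the copy of the mitochondrial gene *mt-Co2*. *Cdh11* was the match of 5 members, *Hnrnpa3* of 3 and *Mfap1a* of 2.

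The copy of a glycolysis gene was the highest member per length. *Gm5559* (ENSMUSG00000096617, processed, 1 exon of 1002 bases) lies at chr5:95861714-95862715 on the plus strand of GRCm38, 4618 bases from the nearest other gene. It was at 47.1, 67.6 and 91.2 CPM (lowest, median and highest of 6) in brain, at 37.5, 65.2 and 91 in cerebellum and at 41.2, 52 and 75.4 in colon. In heart it was at 99.2, 150 and 63.1 CPM in females and at 73.6 and 215 in males, in ovary at 10.8, 30.4 and 28.1 CPM and in testis at 9.59, 4.92 and 10.3 CPM. Every testis library was below every other library, and the heart libraries overlapped those of brain. Its matched gene is *Gapdh*, which encodes the glycolytic enzyme glyceraldehyde-3-phosphate dehydrogenase and varied 17.3-fold between tissues. Relative to it, *Gm5559* varied less, from 24.1% of the FPKM of *Gapdh* in ovary to 34.1% in testis by tissue mean and from 16.1% to 47.4% over the 29 libraries, while its own tissue means spanned 14.5-fold.

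Their sequences are nearly identical, which is why both are shown. Over 1002 aligned bases 1001 were the same, and the whole coding sequence of 999 bases differed at 1 base, T385A, where positions count from the first base of the coding sequence of *Gapdh* and the base of *Gapdh* comes first. The stretch around it runs from position 345 to 425, at chr6:125162937-125163017 on the minus strand for *Gapdh* and at chr5:95862058-95862138 on the plus strand for *Gm5559* (GRCm38), with the differing base in capitals. Of the 100-base windows of *Gm5559*, 88.9% were found in transcripts of other genes, so that most reads do not tell the loci apart, and the part of misplaced reads in the mean share of 30.1% was not tested.
Gapdh: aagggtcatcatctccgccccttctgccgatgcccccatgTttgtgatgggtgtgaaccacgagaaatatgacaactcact
Gm5559: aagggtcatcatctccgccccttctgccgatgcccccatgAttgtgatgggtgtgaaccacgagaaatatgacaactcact

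Copies of *Hnrnpa3*, which encodes an RNA-binding protein of nuclear ribonucleoprotein particles, also followed their source in part. *Gm12960* (processed, chr4:111807358-111808423, minus strand) was at 7.3, 10.4 and 13.8 CPM (lowest, median and highest of 6) in brain, 8.33, 9.06 and 13.7 in cerebellum, and 8.94, 10.8 and 14.5 in colon. It was at 4.4, 6.06, 6.37, 3.42 and 8.49 CPM in heart, 20.3, 13.9 and 22 in ovary and 12.8, 10.7 and 11.2 in testis. The ovary libraries were the highest but overlapped those of colon, and heart had the lowest mean. *Gm12960* reached 40.2% (cerebellum) to 79.5% (testis) of the FPKM of *Hnrnpa3*, *Gm8991* (processed, chromosome 5) 9.83% to 18.5%, and *Gm6793* (processed, chromosome 8) 10.8% to 16.2%. *Gm12960* was thus the highest of the 3 copies per length in each tissue, the order of the other 2 changed between tissues, and *Hnrnpa3* itself varied 3.51-fold.

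Few substitutions tell 2 of these copies from their source, and a stretch that holds several is shown. Against *Hnrnpa3*, *Gm12960* and *Gm8991* each had 4 substitutions in 1063 and 1059 aligned coding bases, with gaps left out, and 99.2% and 97.2% identity over the match with gaps counted. G255A and C786T occurred in both, T294G in *Gm12960* and T318C in *Gm8991* (positions from the first coding base, the base of *Hnrnpa3* first). The stretch covers positions 247 to 336, joined from 2 exons at chr2:75661788-75661955 (plus strand) for *Hnrnpa3*, and lies at chr4:111808092-111808181 for *Gm12960* and chr5:16730739-16730828 for *Gm8991*, both on the minus strand of GRCm38. Capitals mark the bases that differ between *Hnrnpa3* and a copy, and in the line of *Hnrnpa3* those that differ from either copy.
Hnrnpa3: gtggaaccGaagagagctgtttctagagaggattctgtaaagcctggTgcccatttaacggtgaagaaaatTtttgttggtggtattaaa
Gm12960: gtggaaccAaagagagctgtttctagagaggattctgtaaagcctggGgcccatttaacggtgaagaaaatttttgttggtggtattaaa
Gm8991: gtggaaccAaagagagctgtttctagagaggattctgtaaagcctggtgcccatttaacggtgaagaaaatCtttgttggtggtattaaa

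Some other copies of housekeeping genes, picked after their values were seen, were at a small share of their source that varied little between tissue means and more between libraries. *Gm6136*, a copy of the ribosomal protein gene *Rpl6* at 99.6% identity, was at 0.218% to 0.283% of the FPKM of *Rpl6* over the 6 tissues and at 0.0387% to 0.399% over the 29 libraries, although *Rpl6* varied 5.04-fold. *Gm15459*, with 5 mismatches over the 1938 coding bases of the chaperone gene *Hspa8*, was at 0.261% to 0.359% of it by tissue and 0.174% to 0.541% by library. *Gm13456*, a copy of the translation elongation factor gene *Eef1a1*, was at 0.0932% to 0.156% by tissue and 0.0634% to 0.198% by library. By tissue mean, each of these members rose and fell nearly with its source, at a level that a small share of misplaced reads would also reach, and this was not tested. *Gm10093*, a copy of the histone deacetylase gene *Hdac1* at 99.4% identity, was at a higher share, from 6.38% in brain to 7.53% in testis by tissue mean and from 2.75% to 9.13% by library, while *Hdac1* varied 6.52-fold. Other housekeeping copies did not follow their source: *Gm49911* was at 2.99% to 20.9% of the ribosomal protein gene *Rpl37* by tissue, and the share varied 3.78-fold for *Gm13331*, a copy of the ubiquitin enzyme gene *Ube2d3*, and 3.25-fold for *Gm5620*, a copy of *Tuba1b*. The whole exon of *Gm49911* is shared with *Srrm2* on the other strand, and that of *Gm13331* with *Spopl*. The part of reads of these genes in their counts was not tested.

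Over the 45 members whose matched gene was measured in every tissue, the member was at a median of 20% of the FPKM of that gene, below 1% in 9 and above 100% in 9. The 775 pseudogenes expressed in 1 to 5 tissues were at a median of 1.14%. Since the rule chose members by their level in every tissue, nothing is read from this difference. The share itself varied by a median of 3.08-fold between tissues, against 4.1-fold for the members and 4.87-fold for the matched genes, and it varied less than the member's own level in 27 of the 45. For the 19 members with at least 50% of their windows shared, the median was 1.86-fold (1.18 to 39.3), and 13 of them were highest in the same tissue as their match. For the 26 with fewer shared windows it was 3.61-fold (1.3 to 50.6), with the same tissue in 8. The split by windows was made after these values were seen.

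**Figure D2:**
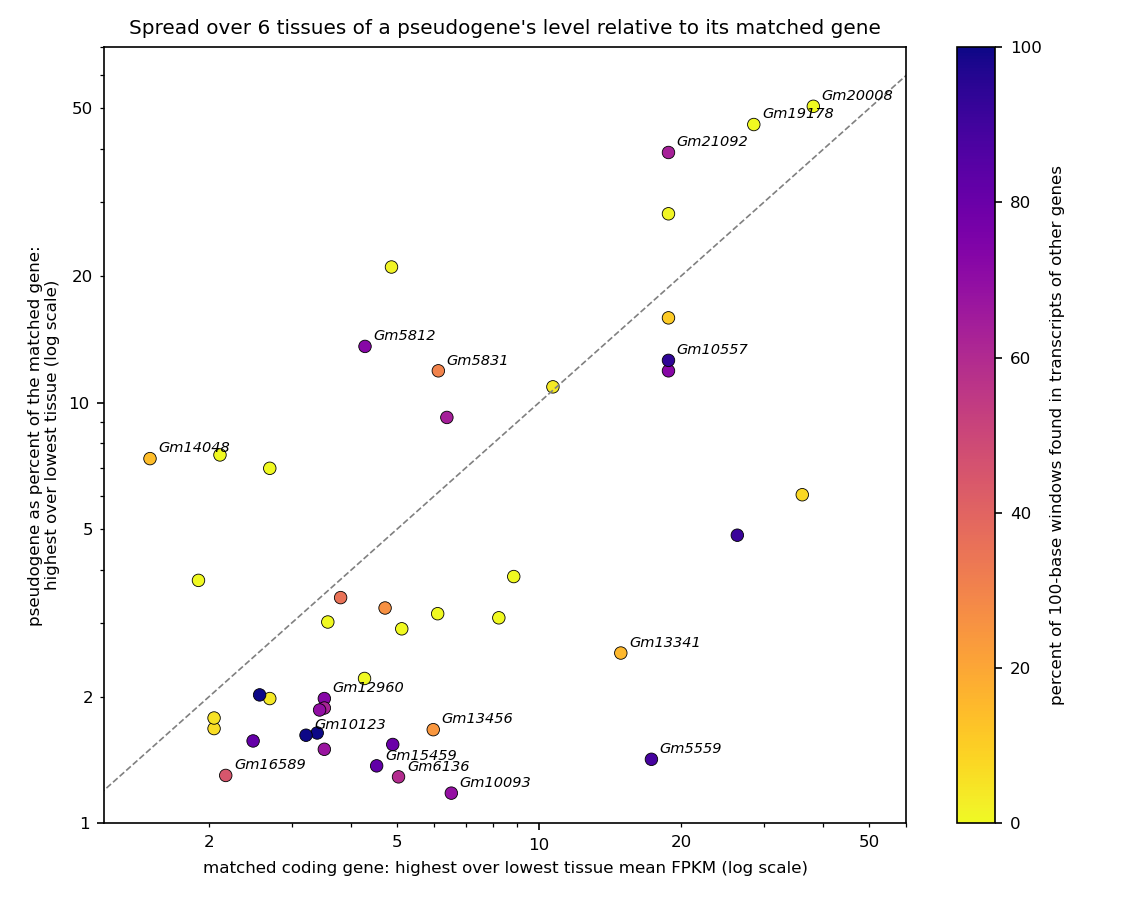
Spread over the 6 tissues (highest over lowest, log axes) of each pseudogene's FPKM as a percent of its matched coding gene, against the spread of that gene, for 45 pseudogenes, with the percent of shared 100-base windows in color. *Gm5559* lies low at the right, at 1.42-fold against 17.3-fold for *Gapdh*, while *Gm5812*, *Gm21092* and *Gm19178* lie above the dashed line of equal spread.

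Some members departed from their source. *Gm5812* (ENSMUSG00000051639, processed, chr17:6121208-6122164, minus strand) matches *Fbl*, the gene of fibrillarin, which methylates ribosomal RNA in the nucleolus, at 96.8% identity, and 72.5% of its windows were shared, so that its counts are uncertain. It was at 29, 39.9 and 27.5 CPM in testis and at 6.32, 8.68 and 8.08 in ovary. In brain its lowest, median and highest values were 4.17, 5.8 and 10.9 CPM, in cerebellum 6.63, 7.74 and 10.6 and in colon 3.58, 4.42 and 5.5, and the heart libraries were at 1.89, 3.55, 4.5, 2.76 and 2.91 CPM. Every testis library was more than 2-fold above every other library, with a testis mean 3.91 times that of the next tissue. As a share of *Fbl* it rose from 11.1% in ovary, where *Fbl* was highest, to 150% in testis. It shares 337 exon bases with *Tulp4* on the other strand, of which it was 14.6% (cerebellum) to 262% (testis), so it followed neither gene.

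The 5 members matched to *Cdh11*, the gene of a cell adhesion protein of the cadherin family, lie apart from it on chromosomes 8 and 18, share none of their windows with coding transcripts, and are unprocessed except *Gm10557*. *Gm21092* (chr8:20567597-20582771, plus strand, 5 exons) was at 12.8, 11.2 and 11 CPM in testis and at 6.27, 4.86 and 5.59 in ovary. In brain it was at 3.82, 4.68 and 6.46 CPM (lowest, median and highest of 6), in cerebellum at 4.15, 5.48 and 6.66 and in colon at 3.16, 4.43 and 5.16, and the heart libraries were at 1.07, 1.92, 4.21, 1.12 and 1.65. All testis libraries were above all others and heart had the lowest libraries. *Cdh11* varied 18.8-fold and was highest in ovary, whereas the 5 copies varied 3.21-fold (*Gm10557*) to 5.86-fold (*Gm21092*) and were highest in ovary or testis. Up to 93.8% of the windows of these copies (*Gm10557*) were found in transcripts of other, non-coding genes, so that they may share reads among themselves.

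The heart members included copies of respiratory chain genes. *Gm6293* (ENSMUSG00000051133, processed, chr19:5415565-5415759, minus strand) matches *Uqcr10*, the gene of a subunit of respiratory complex III, at 94.9% identity with 0 shared windows. It was at 11.5, 8.54, 9.62, 9.29 and 13.9 CPM in heart, at 2.38, 2.09 and 2.21 in ovary and at 1.37, 0.744 and 1.04 in testis. In brain it was at 0.666, 0.989 and 1.19 CPM (lowest, median and highest of 6), in cerebellum at 1.21, 1.33 and 1.73 and in colon at 0.511, 1.9 and 2.75. All heart libraries were over 3 times as high as any other. As a share of *Uqcr10*, which was also highest in heart, it ran from 3.84% in brain to 11.1% in heart.

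*Gm13341* (unprocessed, chr2:22587291-22587962, minus strand, within the span of *Myo3a* on the other strand) resembles *mt-Co2*, the mitochondrial gene of a subunit of respiratory complex IV, at 95.9% identity. Such copies arise when mitochondrial DNA is carried into the nucleus. In heart it was at 20.8, 8.34, 10.3, 19.9 and 16.2 CPM, in ovary at 3.16, 0.442 and 0.142 and in testis at 0.632, 1.42 and 1.04. Its lowest, median and highest values were 1.52, 4.05 and 5.45 CPM in brain, 0.829, 2.68 and 6.5 in cerebellum and 1.06, 2.38 and 2.92 in colon. Every heart library was above all others, and cerebellum and ovary spread widely. The count locus of *mt-Co2*, which joins several mitochondrial genes, was at 8140 FPKM in heart and 545 FPKM in testis, and *Gm13341* was at 0.111% (colon) to 0.282% (testis) of it by tissue and 0.0311% to 0.442% by library. Of its windows 15.4% were shared, and without ovary replicate 1 it was no longer a member. The nuclear copy differs from *mt-Co2* at 16 of 669 aligned coding bases with gaps left out, and the part with the most mismatches, from position 445 to 534 at chrM:7457-7546 (plus strand) and chr2:22587441-22587530 (minus strand), is shown with mismatches in capitals. They are T462C, C474T, C477T, A492C, G493A, C501A and C522T, with the base of *mt-Co2* first.
mt-Co2: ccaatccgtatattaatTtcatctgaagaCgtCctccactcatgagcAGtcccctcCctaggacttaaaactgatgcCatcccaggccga
Gm13341: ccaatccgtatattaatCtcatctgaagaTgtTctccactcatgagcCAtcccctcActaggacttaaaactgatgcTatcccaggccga

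*Hist1h2aj* (ENSMUSG00000080076, unprocessed, chr13:21721457-21721808, minus strand) lies among the histone genes and matches *Hist1h2ai* at 99.7% identity. Such histone genes are read when cells copy their DNA, and their mRNA has no poly(A) tail, which libraries made after removal of ribosomal RNA can hold. It was at 8.54, 16 and 19.2 CPM in ovary, 2.42, 4.37 and 3.84 in testis, and 1.11, 3.97 and 7.54 (lowest, median and highest of 6) in colon. In brain the same values were 0.389, 0.986 and 2.53 CPM and in cerebellum 0.326, 0.607 and 1.83, and heart was at 0.946, 0.758, 2, 0.613 and 0.097. All ovary libraries were above all others, and its ovary mean was 3.88 times the next. *Hist1h2ai* was also highest in ovary and varied 26.3-fold, and 91.7% of the windows of *Hist1h2aj* were shared.

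The members were also placed against other genes on the genome. Of the 50, 29 shared no base with the span of another gene, at a median of 14211 bases from the nearest, 6 lay within the span of a gene on the other strand and 2 on the same strand without shared exon bases, 10 shared exon bases with a gene on the other strand and 3 on the same strand. Among all eligible pseudogenes 2.02% shared exon bases on the other strand. The libraries kept strand, but whether reads were counted by strand is not stated, so that reads of both genes in the shared bases cannot be told apart. For 6 of the 10 members the whole exon was shared, and for the others 5.61% to 35.2% of it.

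*Gm5831* (ENSMUSG00000111133, processed, chr9:42964872-42966080, plus strand), second among the members per length, lies whole in an exon of *Arhgef12*. It was at 27.5, 31.5 and 35.7 CPM (lowest, median and highest of 6) in brain, 28.4, 31.5 and 37.6 in cerebellum and 13.6, 15.7 and 20.4 in colon. In heart it was at 17.4, 29.7, 44.2, 23.9 and 26.9 CPM, in ovary at 32.2, 31 and 30.9 and in testis at 9.45, 7.34 and 8.88. Brain, cerebellum and ovary were alike, and every testis library was below all others. Its FPKM was 115% to 122% of that of *Arhgef12* in the 6 tissues and 108% to 128% in the 29 libraries, while both genes varied over 3-fold. Its best match by sequence was *Sp140* at 98.8% identity, of which it was 491% (colon) to 5831% (brain).

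Another 2 members with a shared exon followed the gene on the other strand less closely. *Gm16042* was at 100% to 126% of the locus of *Glcci1* over the tissues and at 88.8% to 169% over the libraries, with 4.58-fold and 4.87-fold variation of the pseudogene and of that locus. *Gm14048*, a copy of the proteasome gene *Psmd11* at 98% identity, was at 144% to 205% of *A730017L22Rik* over the tissues and at 94.8% to 271% over the libraries, and both were highest in brain. *Gm14048* was at 3.61, 5.07 and 5.75 CPM (lowest, median and highest of 6) in brain, 1.57, 2.14 and 3.1 in cerebellum and 0.766, 1.08 and 1.49 in colon. It was at 0.37, 0.798, 1.87, 0.357 and 0.921 CPM in heart, 2.66, 1.65 and 1.32 in ovary and 0.597, 0.517 and 0.455 in testis, so that its brain libraries stood above all others. The source *Psmd11* varied only 1.5-fold.

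**Figure D3:**
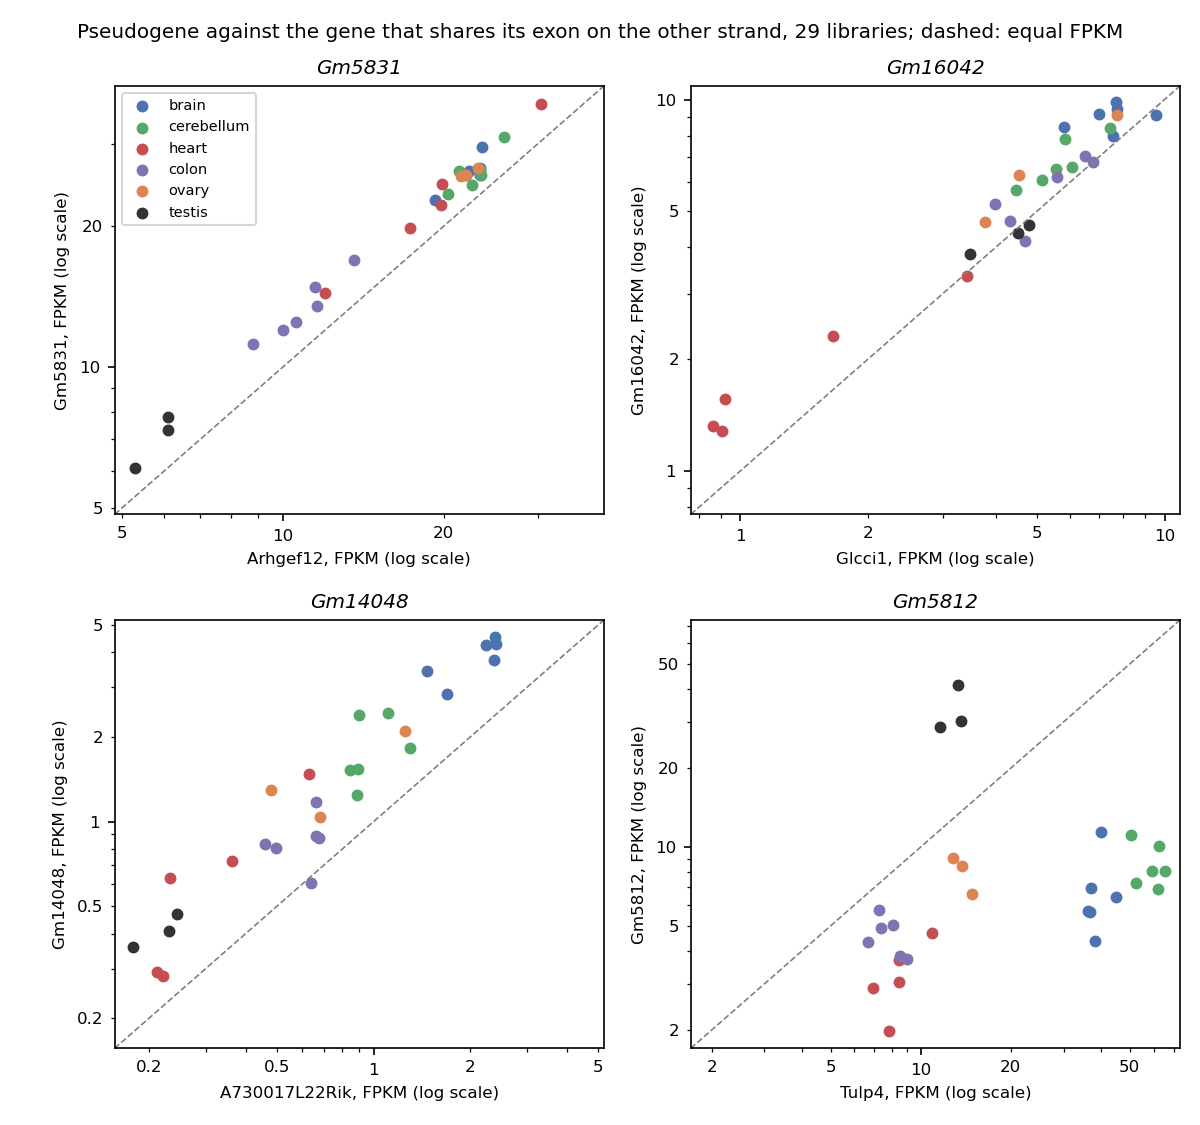
FPKM (log axes) of *Gm5831*, *Gm16042*, *Gm14048* and *Gm5812* against that of the gene that shares their exon on the other strand, in 29 libraries colored by tissue; dashed lines mark equal FPKM. *Gm5831* stayed at 108% to 128% of *Arhgef12*, whereas *Gm5812* was above *Tulp4* in testis and below it in the other tissues.

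For the other members of this kind the ratio varied more. *Gm49190* (chr14:47320410-47321056, minus strand), whose whole exon is shared with *Mapk1ip1l*, was at 53% (testis) to 102% (colon) of it, and both were highest in colon. In colon *Gm49190* was at 16.5, 19.7 and 24.4 CPM (lowest, median and highest of 6), above all other libraries, the highest of which was an ovary library at 13.9. *B230207O21Rik*, which shares 18 exon bases with *Mccc1*, a gene of leucine breakdown, was at 33% to 51.5% of it, and every heart library, from 6.41 to 7.42 CPM, was above all others. Over the 9 such members with a measured gene on the other strand, the ratio varied less than the member itself in 6.

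*5830417I10Rik* (ENSMUSG00000078684, unprocessed, chr3:88775216-88825587, plus strand, 19 exons), which RefSeq lists as a transcribed pseudogene, had the second highest mean CPM. Per length of its 6190 exon bases it was at place 17 among the members, at 5.36 FPKM. It was at 20.5, 22.2 and 24 CPM (lowest, median and highest of 6) in brain, 26.6, 28.9 and 34.2 in cerebellum and 15.2, 19.4 and 25.6 in colon. It was at 24.4, 43.4, 26.1, 34.5 and 42.2 CPM in heart, 36.6, 46.1 and 41.6 in ovary and 54, 53 and 48.5 in testis. The testis libraries were above all others, and the tissue means spanned 2.6-fold. It matches *Gon4l* at 99% identity over 46.8% of its length, and 55.8% of its windows were shared. It also shares 831 exon bases with *1500004A13Rik* on the other strand, of which it was 49.4% (brain) to 991% (testis).

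The smallest ratio of highest to lowest tissue belonged to the member with the lowest mean CPM. *Gm14018* had tissue means from 0.594 CPM in testis to 0.884 CPM in ovary, with SDs within tissues of 0.24 to 0.548 CPM, so that the tissue means differed by about the spread between libraries. *Gm4865* (2.2-fold) and *Gm12430* (2.31-fold) both match *Mfap1a*, which varied 2.05-fold, and were at 42% to 74.8% and 14% to 23.5% of it. *Gm36298* (2.54-fold) was at 1.13 ± 0.17 CPM in testis (SD, n = 3) and 2.88 ± 2.69 CPM in ovary (SD, n = 3). *Gm5620*, a copy of the tubulin gene *Tuba1b*, was at 2 ± 0.459 CPM in cerebellum (SD, n = 6) against 1.42 ± 0.468 CPM in brain (SD, n = 6), a distance close to the SDs.

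**Figure D4:**
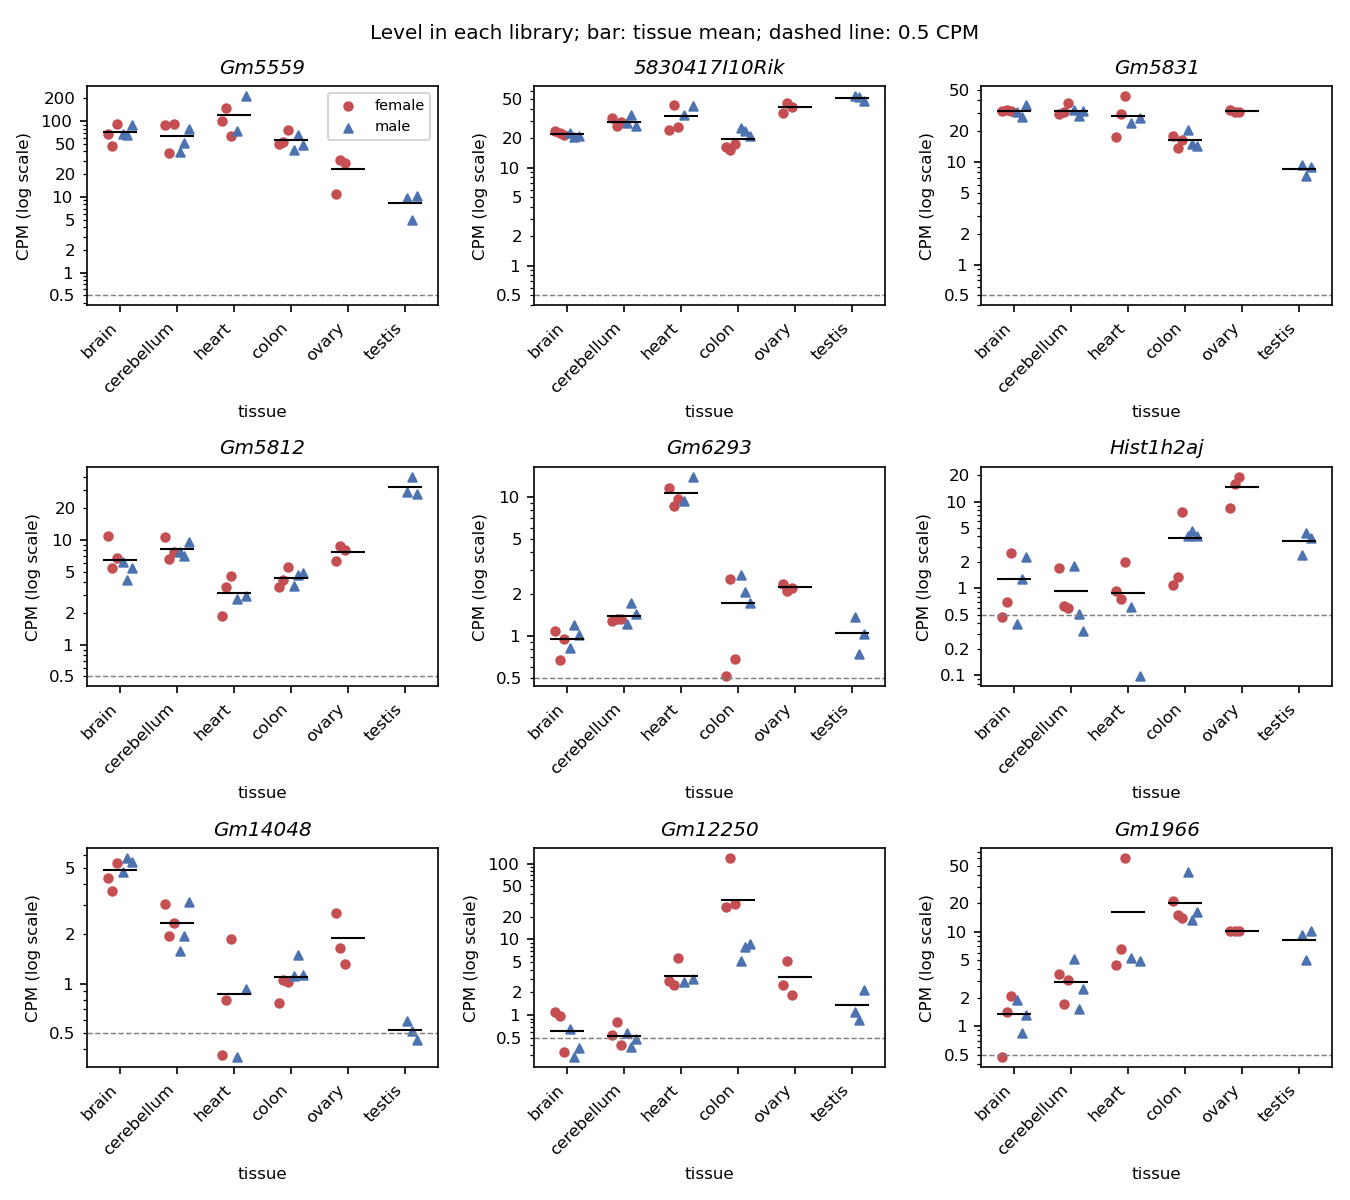
CPM (log axes) of 9 named pseudogenes in each library by tissue, with circles for female and triangles for male libraries and a bar at the tissue mean. *Gm12250* was higher in the 3 female than in the 3 male colon libraries, and 1 female heart library of *Gm1966* stood at 60.5 CPM.

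The largest difference between tissues, of 61.4-fold and 29.3-fold without female colon replicate 2, belonged to a member related to interferon-inducible GTPases, and another such member varied between single libraries. Interferons are signals released on infection, and the proteins that they induce include GTPases that attack the vacuoles in which microbes live. *Gm12250* (ENSMUSG00000082292, processed, chr11:58187739-58189012, plus strand) is listed by RefSeq as protein-coding and belongs to this family. It had no match at 70% identity and 0 shared windows. *Gm1966* (ENSMUSG00000073902, unprocessed, chr7:106596743-106604035, minus strand), which RefSeq also lists as protein-coding, matches *Gvin1*, a very large GTPase of the same kind, at 92.9% identity with 1.06% of windows shared. RefSeq gave 5 members as protein-coding, 33 as pseudogenes and 3 as transcribed pseudogenes, and 9 were not found.

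*Gm12250* was at 27, 119 and 29.5 CPM in female colon and at 5.24, 8.03 and 8.77 CPM in male colon. All 3 female libraries were above all 3 male libraries, for which no share over all genes is given, and replicate 2 was far above the other females. In heart it was at 2.8, 2.51 and 5.62 CPM in females and 2.76 and 2.96 in males, in ovary at 2.5, 5.14 and 1.82 and in testis at 1.09, 0.873 and 2.15. Brain ran from 0.276 to 1.09 CPM and cerebellum from 0.381 to 0.818, near the threshold, and without female cerebellum replicate 2 it was no longer a member. By the mean, colon was 9.87 times the next tissue, and 4.72 times without female colon replicate 2. In colon the difference between the sexes was -3.17 on the log2 scale (male minus female, SE 0.51, 9.01-fold, edgeR adjusted p = 0.00179 over all genes tested). Fitted on the colon libraries alone, it was -3.19 with an edgeR adjusted p = 0.06, which was not called at the threshold of 0.05. Over all alternatives the log2 difference ran from -3.53 to -2.05, the latter without female colon replicate 2, and the edgeR or DESeq2 adjusted p from 1.36e-07 to 0.06.

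Markers of other cells in these colon libraries are given beside it. The plasma and B cell markers were summed at 83.6, 68.4 and 71.8 FPKM in females and at 174, 89.4 and 111 in males, the fat markers at 324, 195 and 391 against 134, 32.8 and 231, and the smooth muscle markers *Myh11*, *Acta2* and *Des* at 2612, 3159 and 4236 against 6329, 4291 and 3001. *Jchain*, *Cfd* and *Acta2* were the most abundant genes of their lists in each of these libraries, and no gene of the lists was at 0. Of the colon markers, *Muc2* was at 524, 96.1 and 115 FPKM in females and at 116, 120 and 214 in males, *Car1* at 8600, 14771 and 10355 against 7580, 10169 and 10628, and *Cdx2* at 55.4, 59.8 and 93.6 against 52, 84 and 75.8, without a common direction. The part of any of them in the difference was not tested.

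*Gm1966* was at 21.3, 14.9 and 14.1 CPM in female and 42.7, 13.2 and 16.3 in male colon. In heart it was at 4.44, 6.58 and 60.5 CPM in females and 5.26 and 4.9 in males. The female heart value of 60.5 CPM came from replicate 3, the library with the high fat and B cell markers, and the colon value of 42.7 CPM came from male replicate 1, the library with the high *Cd79a*. The part of such cells in these values was not tested. Without the former, the heart mean was 5.3 ± 0.922 CPM (SD, n = 4) in place of 16.3 ± 24.7 CPM (SD, n = 5). The other tissues were at 10.3, 10.3 and 10.3 CPM in ovary, 9.17, 5.08 and 10.2 in testis, 1.52 to 5.09 in cerebellum and 0.466 to 2.09 in brain, where it was lowest.

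Promoters of the pair are shown, because both belong to interferon-related families. RefSeq promoters, 250 bases before to 50 after the start of the gene in RefSeq, were found for 5 members on GRCm38, and were searched on both strands for GAAA, any 2 bases and GAAA again, the core of the interferon-stimulated response element. *Gm12250* held 2 matches, at positions 160 and 205 of the window chr11:58183593-58183892 (plus strand), and *Gm1966* held 1, at position 88 of chr7:106644596-106644895 (minus strand). The match of *Gm1966* lies in a run of T and C bases, which can meet this pattern by composition, so nothing is read from it. Both windows lie upstream of the pseudogene as annotated for the counts and apart from it, because RefSeq places the start of the gene elsewhere. The other 3 members, *Gm36298*, *Gm10509* and *AA414768*, had 0 matches in their windows. Among all 32851 promoters, 1131 (3.44%) held the motif. The matches, written on the strand of the gene, are in capitals.
Gm12250: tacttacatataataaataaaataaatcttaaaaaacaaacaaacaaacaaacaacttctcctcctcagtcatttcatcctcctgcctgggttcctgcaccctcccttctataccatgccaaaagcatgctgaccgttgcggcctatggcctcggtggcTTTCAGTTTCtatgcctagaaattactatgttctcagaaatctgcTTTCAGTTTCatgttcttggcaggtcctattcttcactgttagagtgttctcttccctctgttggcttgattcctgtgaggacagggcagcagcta
Gm1966: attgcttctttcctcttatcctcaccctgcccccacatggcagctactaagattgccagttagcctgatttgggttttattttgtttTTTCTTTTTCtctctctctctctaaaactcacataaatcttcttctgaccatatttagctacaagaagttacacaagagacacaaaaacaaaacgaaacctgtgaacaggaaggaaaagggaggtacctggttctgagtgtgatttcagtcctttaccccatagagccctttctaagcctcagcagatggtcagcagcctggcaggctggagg

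The comparison of females with males asks whether these widely expressed copies differ between the sexes in tissues that both have. All 50 members passed the low count filter and were tested among 29911 genes. In colon edgeR called 1 of the 50, *Gm12250*, lower in males, while it called 97 genes in all (0.324%), 70 of them lower in males (0.234%). DESeq2 called 2 members, with *Gm4865*, and 405 of all genes. In brain, cerebellum and heart edgeR called 0 of the 50 members, against 11 (0.0368%), 9 (0.0301%) and 19 (0.0635%) of all genes. DESeq2 also called 0 of the 50 in these tissues, against 52, 23 and 282 of all genes. At an unadjusted p under 0.05 there were 3 members in brain, 1 in cerebellum, 6 in heart and 6 in colon (6%, 2%, 12% and 12%), against 4.83%, 3.06%, 9.65% and 8.85% of all genes. In brain and cerebellum members were thus near the background. The heart count holds *Gm4366* and *Gm16386*, and the colon count holds *Gm4366*. Since these can have entered because they were high in 1 sex, nothing is read from the shares in heart and colon.

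In cerebellum the member with an unadjusted p under 0.05 was *Gm4865*, at 6.96, 4.52 and 5.69 CPM in females and 3.41, 2.03 and 3.34 in males, a log2 difference of -0.95 (SE 0.33, edgeR adjusted p = 1). In colon the next members by p after *Gm12250* were *Gm4366*, *Gm4865* and *Gm10093*. *Gm4366*, a copy of the translation factor gene *Eef1g* that shares 69.7% of its windows, was at 0.0852, 0.176 and 0.407 CPM in females and 1.16, 1.01 and 0.45 in males, but these male libraries carried it over the threshold, since it was no longer a member without male colon replicate 1 or 2, so nothing is read from its difference. *Gm4865* was at 3.92, 3.69 and 3.33 CPM against 1.91, 1.28 and 2.55, with -1.10 on the log2 scale (SE 0.35, edgeR adjusted p = 0.272), which DESeq2 called at an adjusted p of 0.0489. In cerebellum and colon no male library of *Gm4865* reached the lowest female library. Its log2 difference was -0.52 in heart (SE 0.38) but 0.10 in brain (SE 0.32). There male replicate 1, at 6.93 CPM, was above every female library (4.11 to 5.13 CPM). *Gm10093*, the copy of *Hdac1*, was at 3.41, 5.21 and 6.31 CPM in female and 8.42, 12 and 10.1 in male colon, without overlap, with 0.87 on the log2 scale (SE 0.31, edgeR adjusted p = 0.335). *Hdac1* itself was at 63.8, 69.6 and 72.6 FPKM in female and 86.8, 93 and 76.8 in male colon, also without overlap. No share over all genes is given for such a separation of the sexes. Nothing is therefore read from it for *Gm4865*, *Gm10093* or *Hdac1*. Of the windows of *Gm10093*, 69% were shared, and the part of *Hdac1* reads in the difference was not tested.

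Over the 50 members the median log2 difference, male minus female, was 0.19 in brain, where 37 were above 0, -0.03 in cerebellum (22 above 0), -0.09 in heart (22) and -0.09 in colon (21), against 0.00 over all genes tested in each tissue. Of the members, 7 passed the rule only with female heart replicate 3, and *Gm4366* only with male heart replicate 2 and with male colon replicates 1 and 2. Nothing is therefore read from the medians in heart and colon. Between the brain libraries, markers of other cells also varied. The summed choroid plexus markers *Ttr*, *Kl* and *Folr1* were at 992, 19.8 and 1561 FPKM in females and 443, 40.8 and 42.4 in males, with *Ttr* the most abundant at 15.7 to 1535 FPKM, and the red cell markers at 1642, 641 and 932 against 673, 322 and 478. The smooth muscle markers were at 24.9, 19.9 and 17 FPKM in females and 12.1, 13.1 and 12.2 in males, so that every female library was above every male library, and *Acta2* was the most abundant. No gene of these lists was at 0 there, and their part in the shift in brain was not tested. Without TMM factors the median of the members in brain was 0.12, with 34 above 0, against -0.02 over all genes. The median of all genes then moved to -0.18 in heart and 0.10 in colon, and that of the members to -0.40 and 0.06, so that the sign in colon turned with the scaling. The calls in colon were then 76 higher and 42 lower in males, in place of 27 and 70.

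Whether the difference between the sexes itself varied between brain, cerebellum, heart and colon was tested as an interaction. edgeR called 0 of the 50 members and 5 of all genes (0.0167%), with 5 members at an unadjusted p under 0.05 (10%, against 6.77% of all genes). *Gm4366*, which male colon libraries carried over the threshold, was among these members, so nothing is read from this share. DESeq2 called 1 member, *Gm12250*, at an adjusted p of 0.0193, and 240 of all genes. In edgeR the adjusted p of *Gm12250* was 0.406. Its difference in colon is therefore not shown to differ from that in the other tissues by the main test.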

How the data were processed

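Per the labels, RNA depleted of ribosomal RNA was read in 29 strand-specific libraries, and the processing notes name FastQC 0.11.8, MultiQC 0.9, HISAT2 2.0.5 and featureCounts 1.6.3. The authors deposited whole-number counts of uniquely mapped reads per gene on their combined annotation (GRCm38.p6), without normalization. Whether they counted reads by strand is not stated. Other per-sample columns numbered 0.

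From the deposited counts, CPM, FPKM and tissue means were computed here in Python 3.11.15 with pandas 2.3.3 and numpy 2.4.6. Members and lists were chosen with earlier results of these data known. Named members were those with the highest mean CPM, also among members that overlap no gene; with the smallest and largest ratio of highest to lowest tissue; with the largest ratio of each tissue to the next; with the smallest adjusted p in a test; and those next to the threshold. *Gm10093*, *Gm4366* and *Gm4865* in the tests, the copies of *Hnrnpa3* and *Cdh11* and other members outside this rule were named after their values were seen. Matched genes were found with BLAST+ 2.17.0 (blastn, E value 1e-10) and sequences handled with Biopython 1.88.

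Females and males were compared in edgeR 4.0.16 (R 4.3.3), with quasi-likelihood tests in 1 model of the 10 groups, TMM factors, the tool's low count filter and Benjamini-Hochberg adjustment at 0.05 over 29911 genes. The test was tried on simulated counts first. Alternatives were DESeq2 1.42.0, no TMM factors, all genes with 1 count or more, a fit on the tissue alone, a replicate block, other thresholds for members, and each library left out in turn.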

Additional observations from a re-analysis of the deposited data

Results flagged for a closer look

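In 88 sets of libraries of a tissue, of 5 or 6 libraries each, the named members and the summed level were examined for a library far from the others, and 12 (13.6%) had such a library. Of the 12, 6 were in female heart replicate 3, the library with high fat and B cell markers, which was above every other heart library for 53.5% of the 29911 genes tested and more than 2 times above for 22%. Because *Gm43106* is a member only with this library, and named members were picked in part for extreme or near-threshold levels, the count cannot be set against chance. There *Gm1966* was at 60.5 CPM against 4.44 to 6.58 in the other hearts, *Gm10557* at 6.96 against 2.72 to 3.66, *Gm12250* at 5.62 against 2.51 to 2.96, *Gm21092* at 4.21 against 1.07 to 1.92, *Gm36298* at 3.33 against 0.658 to 1.02 and *Gm43106* at 1.04 against 0.319 to 0.436. In colon, *Gm12250* was at 119 CPM in female replicate 2 against 5.24 to 29.5, *Gm1966* at 42.7 in male replicate 1 against 13.2 to 21.3, *Gm6136* at 0.0852 in female replicate 1 against 0.815 to 0.995, and the summed level at 369 in female replicate 2 against 275 to 298. *Gm5812* was at 10.9 CPM in brain of female replicate 1 against 4.17 to 6.67, and *Gm36298* at 4.8 in cerebellum of female replicate 3 against 0.829 to 2.28. What set these libraries apart was not tested.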

How the results depend on the processing

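The number of members was 120 at a threshold of 0.25 CPM, 24 at 1 CPM, 95 by FPKM, 27 with every library at the threshold and 92 with transcribed biotypes added, and 43 to 53 with a library left out; the cause was not tested. By TMM-scaled CPM, 56 pseudogenes passed. The median ratio of highest to lowest tissue stayed at 3.99 to 5.34 with a library left out. Ovary was highest for 12 members by TMM and for 15 to 24 with a library left out.

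In brain, cerebellum, heart and the interaction edgeR called 0 to 0 members with a library left out, and in colon 1 to 1. DESeq2 called 2 members in colon and 1 in the interaction, and the fit on colon alone called 0; the cause was not tested. *Gm12250* ran from -3.53 to -2.05 with a library left out.

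Calls among all genes moved over 1.5 times in the following cases except where stated, and the cause was not tested. By DESeq2 they were 52 in brain (edgeR 11), 23 in cerebellum (9), 282 in heart (19), 405 in colon (97) and 240 in the interaction (5). In heart they were 30 over all genes with 1 count or more and 5 on heart alone, and 7 to 285 with a library left out, where a single male library was assumed to vary like the other groups. In colon they were 38 on colon alone, and 43 to 133 with a library left out. In the interaction they were 1 without TMM factors, 12 over all genes with 1 count or more and 0 to 14 with a library left out. Within 1.5 times, they were 8 to 16 in brain and 8 to 13 in cerebellum with a library left out.

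Within a tissue, replicate numbers did not pair females with males: deviations of same-numbered female and male libraries correlated at 0.04 in brain, 0.04 in cerebellum, -0.02 in heart and -0.05 in colon. Same-numbered libraries of 1 sex were not compared across tissues. With a replicate block, edgeR called 10, 8, 16 and 82 genes in brain, cerebellum, heart and colon and 1 in the interaction, with 0, 0, 0, 1 and 0 members, and *Gm12250* was at -3.03 in colon (edgeR adjusted p = 0.0022).

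Depth limits the low members, since 0.5 CPM was 5.87 reads in the shallowest library. With 3 libraries per group or fewer, small differences between the sexes could not be seen.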
